A study of Mus musculus with 8 samples.

Results

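The genes described here are erythropoietin (Epo) and 9 genes known as targets of the hypoxia-inducible factors: Vegfa, Adm, Egln3, Ankrd37, Pdk1, Slc2a1, Bnip3, Ndrg1 and Car9. They were taken by gene symbol, with no threshold on their values, and all 10 were found among the 48440 genes of the count table. RNA of the whole liver was sequenced from 8 neonatal CD1 mice, 4 with a germline deletion of Myo5b (knockout, animals 275 to 278) and 4 control littermates (animals 279 to 282). The controls were heterozygous or wildtype and are not told apart in the labels. Pups were killed between 3 and 8 days of age, and the age, sex and litter of each pup are not given. The deletion is germline, so every cell of the liver and of the other organs carries it. Library totals ran from 14228268 to 18398039 counts, and levels are given as CPM, the counts of a gene scaled to a common library size. Myo5b, which encodes the actin motor myosin Vb, was at 47.3, 43.1, 47.5 and 59.5 CPM in the knockout livers and at 172, 144, 121 and 94.0 CPM in the controls, so the counts of the targeted gene fit the genotype labels, although they cover the whole gene and do not measure intact transcript.

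Cells sense oxygen through prolyl hydroxylases (the Egln genes), which mark the alpha subunits Hif1a and Epas1 for capture by the Vhl protein and destruction. When oxygen is low the alpha subunits persist, pair with Arnt and bind short DNA elements near their target genes. The targets raise oxygen supply through erythropoietin and vessel growth, shift energy metabolism towards glycolysis, and adjust mitochondria and pH. The fetal liver is the main source of erythropoietin and a site of red cell formation, and both functions move to the kidney and bone marrow around and after birth.

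The core letters to which these factors bind are ACGTG or GCGTG, and these were searched on both strands in the promoter windows that RefSeq gives (GRCm38.p6, 250 bases before to 50 after a start site). Windows were found for 9 of the 10 genes, all but Ndrg1. The stretches below are those of Pdk1 and Egln3, which fell in knockout livers, and of Bnip3 and Slc2a1, which did not pass the test. They are written 5′ to 3′ on the strand of the gene, and capitals mark a match on either strand.
Pdk1, chr2:71873134-71873213, plus strand: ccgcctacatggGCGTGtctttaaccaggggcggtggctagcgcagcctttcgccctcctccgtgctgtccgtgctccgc
Egln3, chr12:54204075-54204124, minus strand: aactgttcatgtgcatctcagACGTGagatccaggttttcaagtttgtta
Bnip3, chr7:138909527-138909636, minus strand: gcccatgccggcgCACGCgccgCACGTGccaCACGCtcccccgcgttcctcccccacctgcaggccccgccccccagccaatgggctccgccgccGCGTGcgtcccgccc
Slc2a1, chr4:119108670-119108729, plus strand: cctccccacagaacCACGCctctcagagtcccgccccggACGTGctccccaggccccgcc
The match of Pdk1 shown starts at -78 from the start site, with another at -2 outside the stretch, and the match of Egln3 starts at -229. Bnip3 holds 2 matches to ACGTG, which overlap each other because the letters CACGTG read alike on both strands, and 3 to GCGTG. Slc2a1 holds 1 of each. Of the 11 windows of these 9 genes 9 held a match, the exceptions being 1 of the 2 windows of Vegfa and 1 of the 2 of Pdk1. A match to either was found in 58.5% of the windows of genes tested, in 57.3% of those of genes called lower in knockout livers and in 55.5% of those of genes called higher. A match is a description of the letters, and it occurred in genes that fell, rose or did not pass the test.

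Among the 9 genes that had enough counts to be tested, 1 rose in the knockout livers (Vegfa) and 3 fell (Pdk1, Egln3 and Ndrg1), while 5 did not pass the test. A gene was called when its adjusted p was under 0.05 in edgeR's quasi-likelihood test over all 18274 genes tested. Over all those genes 20.7% were called, 9.27% as higher and 11.4% as lower. The 4 calls among 9 genes, and the counts given below for lists of related genes, are to be read beside those shares. The median log2 fold change of the 9 genes was -0.69, against 0.01 over all genes tested. That median is the estimate of Ankrd37, a gene with few counts that did not pass the test (SE 0.48). With 1 library left out the median ran from -0.75 (without control 281) to -0.38 (without knockout 277). Vegfa and Car9 had estimates above 0 and the other 7 below 0. Epo had too few counts for the test and is described first.

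**Figure D1:**
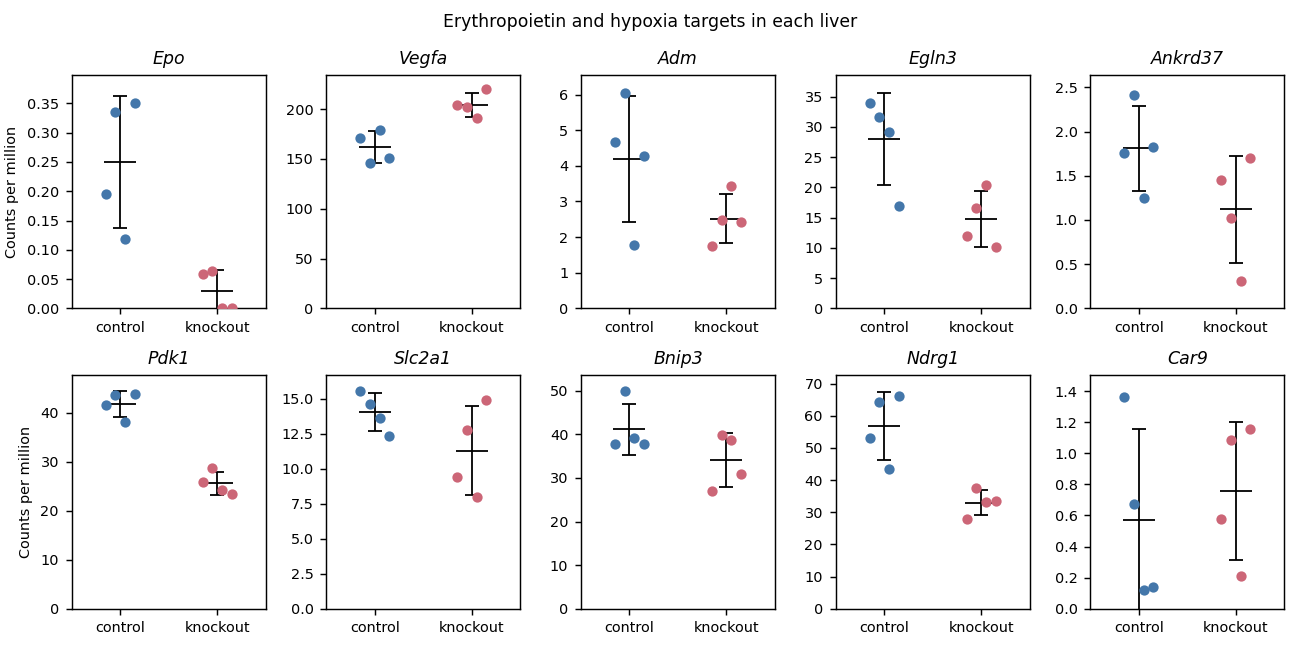
CPM of each of the 10 genes in each liver (points), with the mean and SD of the 4 livers of a genotype (black), each panel from 0 on its own scale. The knockout points of Vegfa lie above all control points, those of Epo, Pdk1 and Ndrg1 lie below all control points, and in the other panels the genotypes overlap.

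Epo (ENSMUSG00000029711, chromosome 5, 137483020 to 137533242 on GRCm38, minus strand) encodes the hormone that keeps erythroid progenitors alive. It was read 1, 1, 0 and 0 times in the knockout libraries 275 to 278 and 3, 5, 2 and 5 times in the control libraries 279 to 282. These counts correspond to 0.0580, 0.0639, 0 and 0 CPM against 0.195, 0.335, 0.119 and 0.351 CPM. Every knockout liver thus lay below every control liver, at levels close to the limit of detection in both genotypes. The mean was 0.0305 ± 0.0353 CPM in knockout and 0.250 ± 0.112 CPM in control livers (SD, n = 4). An exact two-sided permutation test gave p = 0.029, the lowest value this number of livers can reach. Without any 1 of the knockouts the exact permutation p was 0.057, and without any 1 of the controls it was 0.029. Every knockout liver still lay below every control liver in each of these cases. With so few livers the p can take few values, so these p-values do not measure a loss of separation. Pooled over libraries, 2 counts against 15 give a level 8.34-fold lower in knockout livers, with an exact 95% interval of 1.94 to 75.2 that covers counting error only. A library without a read could hold up to 0.158 to 0.182 CPM (3 counts). No fold change of Epo was called in the fits that kept it: with no low-count filter edgeR gave a log2 fold change of -2.77 (adjusted p = 0.329), and DESeq2 gave -3.07 with no adjusted p. In the GENCODE annotation 104 of the 855 exonic bases of Epo are shared with Gnb2 on the same strand, a gene at 65.1 to 84.8 CPM in these livers (log2 fold change -0.11, adjusted p = 0.441), so single reads of Epo are uncertain.

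Vegfa (ENSMUSG00000023951, chromosome 17, 46016993 to 46032369), the main growth factor of vascular endothelium, was the member with the most reads and the only member called higher. It was at 204, 202, 191 and 220 CPM in the knockout livers and at 171, 146, 179 and 151 CPM in the controls. The highest control (281) lay below the lowest knockout (277), and of genes tested 23.6% had genotypes that did not overlap. Vegfa was 1.26-fold higher in knockout livers, at 204 ± 11.8 against 162 ± 15.9 CPM (SD, n = 4), with a log2 fold change of 0.34 (SE 0.09, 95% interval 0.15 to 0.52, adjusted p = 0.00981). The call was lost when knockout 278 and control 282 were both left out (0.27, adjusted p = 0.0584). Markers of sinusoidal and vascular endothelium, the cells that carry the receptors, rose in the same livers: 8 of 12 were called higher and 0 lower, and their summed level was 1328 to 1587 CPM in knockout and 1057 to 1131 CPM in control livers. Their part in the result was not tested. In whole tissue, a change in the number of cells of a type and a change in RNA per cell cannot be told apart.

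Of 9 tested genes of VEGF ligands and receptors, 4 rose and 0 fell (median log2 fold change 0.24). Kdr, the main signalling receptor of Vegfa, was at 239, 227, 260 and 251 CPM in knockout and 178, 196, 179 and 176 CPM in control livers. Its knockout values were all above its control values, with a log2 fold change of 0.42 (SE 0.08, adjusted p = 9.82e-04). Kdr is also among the 8 endothelial markers called higher, so both counts hold it. The co-receptors Nrp1 (0.39, SE 0.08) and Nrp2 (0.41, SE 0.10) rose, as did the semaphorin receptor Plxnd1 (0.32, SE 0.09), which lost its call without knockout 277 (0.27, adjusted p = 0.0520). Flt1, the receptor that binds Vegfa with high affinity and signals weakly, was at 52.7 ± 6.20 against 53.0 ± 3.75 CPM (SD, n = 4; log2 fold change -0.01, SE 0.10, adjusted p = 0.968).

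Adm (ENSMUSG00000030790, chromosome 7, 110627661 to 110629820) encodes adrenomedullin, a peptide that widens vessels. It was at 1.74, 2.49, 3.42 and 2.43 CPM in knockout livers and at 4.68, 6.03, 1.78 and 4.28 CPM in controls. Control 281 lay among the knockouts and the other 3 controls above them. Its log2 fold change was -0.73 (SE 0.35, 95% interval -1.46 to 0.01, adjusted p = 0.160), and it passed the test without control 281 (-0.98, adjusted p = 0.0351). All 7 genes of its receptor and relatives had estimates above 0, with a median of 0.75, and 3 of them rose. Ramp3, a partner of the receptor, was read 38, 49, 18 and 59 times in knockout libraries and 0, 2, 2 and 4 times in controls. Those reads are 2.47 ± 1.16 CPM against 0.133 ± 0.115 CPM (SD, n = 4), and the fitted log2 fold change was 4.15 (SE 0.67, adjusted p = 2.91e-04). Ramp1 (0.83, SE 0.24) and Pam, which matures the peptide (0.37, SE 0.08), rose too. The Ramp1 call was lost without knockout 275 (0.71), control 279 (0.77) or control 281 (0.66). The receptor gene Calcrl (0.28, SE 0.12, adjusted p = 0.107), Ramp2 (0.30, SE 0.14, adjusted p = 0.160) and the decoy receptor Ackr3 (0.75, SE 0.31, adjusted p = 0.101) did not pass. Calcrl passed with library size as the only scaling (0.36), and Ackr3 passed without knockout 277 (0.97).

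Egln3 (ENSMUSG00000035105, chromosome 12, 54178981 to 54203860) encodes an oxygen-sensing prolyl hydroxylase that is itself induced by hypoxia. It was at 11.95, 16.6, 20.3 and 10.2 CPM in knockout livers and at 34.0, 31.7, 29.2 and 17.0 CPM in controls. Control 282 lay below knockout 277, and the other 3 controls lay above every knockout. Egln3 fell by 0.92 on the log2 scale (SE 0.26, 95% interval -1.49 to -0.34, adjusted p = 0.030), from 28.0 ± 7.58 to 14.8 ± 4.59 CPM (SD, n = 4). The call was lost without knockout 275 (-0.83), knockout 276 (-0.99), control 279 (-0.81), control 280 (-0.86) or control 281 (-0.90), with adjusted p from 0.0597 to 0.0935.

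Ankrd37 (ENSMUSG00000050914, chromosome 8, 45996902 to 46005707), a small ankyrin repeat gene used as a marker of hypoxia, was at 1.45, 1.02, 0.316 and 1.70 CPM in knockout livers and at 1.75, 2.41, 1.25 and 1.82 CPM in controls. The genotypes overlapped, and the log2 fold change of -0.69 (SE 0.48, 95% interval -1.71 to 0.33, adjusted p = 0.353) rests on 185 counts in all 8 libraries. Its exons overlap those of Lrp2bp (349 bases) and Ufsp2 (57 bases) on the other strand, and the strand setting of the counting is not given in the sources used here.

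Of 17 genes of oxygen sensing and the hypoxia-inducible factors themselves, 3 rose, 2 fell and 12 did not pass, with a median of -0.07. Over all genes tested, 9.27% were called higher and 11.4% lower. Epas1, the alpha subunit known for driving erythropoietin, was at 501, 434, 455 and 356 CPM in knockout livers and at 233, 248.6, 236 and 255 CPM in controls. Every knockout was above every control (log2 fold change 0.84, SE 0.10, adjusted p = 1.20e-05). Its partner Arnt rose as well (0.34, SE 0.08, adjusted p = 0.00850), and so did Os9, a lectin of protein quality control (0.58, SE 0.12). Cited4, which binds the same coactivators as the factors, was called lower (-1.02, SE 0.34, adjusted p = 0.0425), a call lost without any single library other than knockout 278 and control 280, at -1.08 to -0.65. With all 8 libraries the call was also lost by library size alone, dispersion without the robust option and limma-voom (adjusted p of 0.0527 to 0.0732). With a Y-linked covariate the adjusted p of Cited4 was 0.121. Fewer than the 2 that fell were called without any single library, from 0 to 1. Hif1a (0.07, SE 0.09, adjusted p = 0.644), Egln1 (-0.20, SE 0.11, adjusted p = 0.231) and Vhl (0.00, SE 0.20, adjusted p = 0.994) were not called. These are levels of RNA, and oxygen acts on the alpha subunits through their protein.

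**Figure D2:**
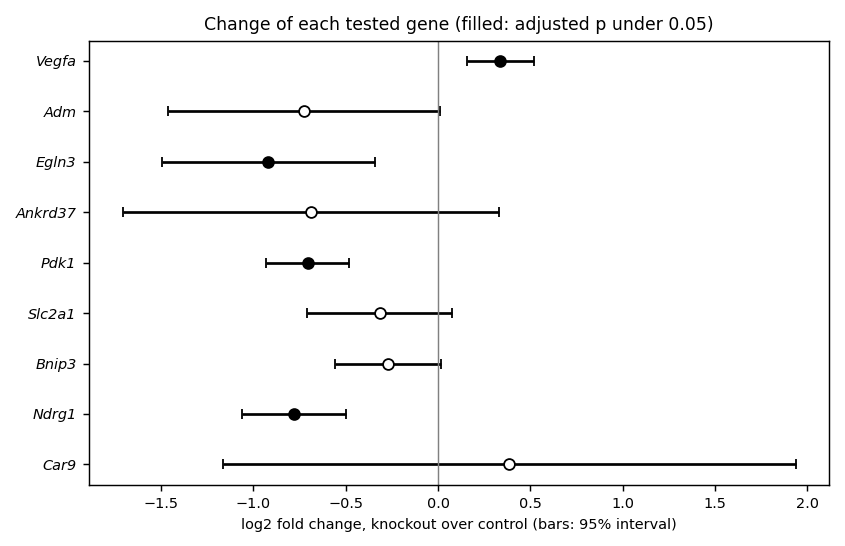
Log2 fold change of the 9 tested genes, knockout over control, with its 95% interval; filled points have an adjusted p under 0.05. Vegfa lies above 0, Egln3, Pdk1 and Ndrg1 lie below it, and the interval of Car9 is the widest.

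Pdk1 (ENSMUSG00000006494, chromosome 2, 71873224 to 71903858), a kinase that switches off pyruvate dehydrogenase and so keeps pyruvate out of the mitochondrial cycle, had the smallest p of the 9 genes. It was at 25.9, 28.8, 24.3 and 23.4 CPM in knockout livers and at 41.6, 43.6, 38.1 and 43.8 CPM in controls. The genotypes were far apart beside their spread, at 25.6 ± 2.36 against 41.8 ± 2.66 CPM (SD, n = 4). The log2 fold change was -0.71 (SE 0.11, 95% interval -0.93 to -0.48, adjusted p = 1.53e-04). It remained called without any single library, at -0.77 to -0.67. Pdk1 was also compared with the other tested genes once the difference between genotypes was taken out. Those whose log2 CPM followed it most closely over the 8 libraries were Thtpa (Pearson r = 0.98), Ehd2 (0.96) and Casq2 (0.96). They are a description, the highest of many genes ranked, and how often chance gives such values was not assessed. None of these passed the test between genotypes (adjusted p of 0.191 to 0.97).

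The paralogues of Pdk1 moved in both directions. Of 13 genes of pyruvate dehydrogenase and its control, 1 rose and 4 fell, with a median of -0.24, and 2 fell without knockout 276 or control 280. Pdk4, the kinase induced in fasting, was at 150, 191, 157 and 85.0 CPM in knockout livers and at 45.3, 55.5, 42.1 and 58.1 CPM in controls. Knockout 278 was the lowest of the knockouts and still above every control (log2 fold change 1.54, SE 0.25, adjusted p = 0.00447). Pdk2 (-0.48, SE 0.12) and Pdk3 (-0.65, SE 0.15) fell. Pdhx, a structural subunit of the complex, fell by 0.46 (SE 0.14), a call lost without knockout 276 (-0.38), control 279 (-0.42) or control 280 (-0.38). A second rise was counted without control 281.

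Slc2a1 (ENSMUSG00000028645, chromosome 4, 119108711 to 119137983), the glucose transporter GLUT1, was at 9.40, 12.8, 8.01 and 14.9 CPM in knockout livers and at 15.5, 14.6, 13.6 and 12.3 CPM in controls. Knockouts 276 and 278 lay within the control range and the other 2 below it. The log2 fold change was -0.32 (SE 0.19, 95% interval -0.71 to 0.08, adjusted p = 0.261). Slc2a2, the transporter of hepatocytes, fell from 432 ± 49.5 to 300.2 ± 37.3 CPM (SD, n = 4; log2 fold change -0.53, SE 0.10, adjusted p = 0.00162). Slc2a3, a high-affinity transporter, did not pass (-0.26, SE 0.15, adjusted p = 0.260). Of 9 tested genes of the family other than Slc2a1, 4 fell and 0 rose. Slc2a4 (-1.63, SE 0.49), Slc2a13 (-0.79, SE 0.26) and Slc2a9 (-0.29, SE 0.10) were the other 3, with adjusted p of 0.0399 to 0.0495. With all 8 libraries the Slc2a9 call was lost by RLE or upper-quartile scaling or library size alone (adjusted p of 0.0533 to 0.132). It was lost too with no low-count filter, DESeq2 or a Y-linked covariate (adjusted p of 0.0592 to 0.0960). Slc2a13 lost its call with library size alone (adjusted p = 0.0585) and the Y-linked covariate (adjusted p = 0.0813). Without any single library other than knockout 278, only 1 or 2 of the 4 were called.

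Of 18 glycolytic targets of the factors, 2 rose, 4 fell and 12 did not pass, with a median of -0.02. Over all genes tested, 9.27% were called higher and 11.4% lower. Hk1, a hexokinase also high in red cell precursors, fell from 64.7 ± 9.98 to 31.1 ± 4.11 CPM (SD, n = 4; log2 fold change -1.06, SE 0.12). Ppp1r3c, which steers glycogen storage (-0.996, SE 0.12), and Pfkl, the liver phosphofructokinase (-0.61, SE 0.11), fell. Ldha, which makes lactate from pyruvate, was at 1020.5, 1221, 1046 and 759 CPM in knockout livers and at 551, 647, 617 and 538 CPM in controls. It rose by 0.78 (SE 0.12, adjusted p = 2.92e-04), with every knockout above every control. Without knockout 278, 4 genes of this list rose.

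Bnip3 (ENSMUSG00000078566, chromosome 7, 138890836 to 138909519), a receptor that hands mitochondria to autophagy, was at 27.0, 39.9, 38.7 and 30.9 CPM in knockout livers and at 37.9, 49.9, 39.1 and 37.7 CPM in controls. The genotypes overlapped, with a log2 fold change of -0.27 (SE 0.14, 95% interval -0.56 to 0.02, adjusted p = 0.179). Its paralogue Bnip3l, known for clearing mitochondria from maturing red cells, was at 64.8, 68.5, 57.7 and 67.6 CPM against 92.1, 82.1, 93.5 and 99.2 CPM. It fell by 0.51 (SE 0.09, adjusted p = 6.27e-04) without overlap between the genotypes. It was the only 1 of 7 mitophagy receptor genes called, with 3 called without control 281. Bcl2l13 (-0.25, adjusted p = 0.0537), Phb2 (-0.23, adjusted p = 0.0656) and Fkbp8 (0.14, adjusted p = 0.227) did not pass; the first 2 passed without control 281 (-0.29 and -0.27).

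Ndrg1 (ENSMUSG00000005125, chromosome 15, 66929318 to 66969640), a stress-induced gene of the NDRG family, was at 27.8, 37.6, 33.2 and 33.4 CPM in knockout livers and at 53.1, 64.3, 43.5 and 66.1 CPM in controls. The highest knockout (276) was below the lowest control (281). It fell from 56.7 ± 10.5 to 33.0 ± 4.01 CPM (SD, n = 4), a log2 fold change of -0.78 (SE 0.13, 95% interval -1.06 to -0.50, adjusted p = 4.86e-04), and remained called without any single library, at -0.89 to -0.70. Its paralogue Ndrg2 fell from 278 ± 23.7 to 108 ± 19.6 CPM (SD, n = 4; -1.37, SE 0.11, adjusted p = 9.68e-07), and Ndrg3 did not pass (-0.17, SE 0.15, adjusted p = 0.482). Exons of Ndrg1 overlap 2 genes of the other strand, of which Gm17035 had no counts and Gm2895 was at most at 0.485 CPM.

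Car9 (ENSMUSG00000028463, chromosome 4, 43506966 to 43513729), a carbonic anhydrase of the cell surface that is among the most hypoxia-specific targets in tumours, was at 0.580, 1.09, 0.211 and 1.15 CPM in knockout livers and at 1.36, 0.670, 0.119 and 0.140 CPM in controls. Both genotypes held high and low livers, and with 85 counts in all the log2 fold change of 0.39 (SE 0.73, 95% interval -1.16 to 1.94, adjusted p = 0.767) allows a change in either direction. Exons of Car9, Slc2a1 and Bnip3 overlap predicted genes of the other strand too. Of 9 tested carbonic anhydrase genes other than Car9, 4 fell and 0 rose, with a median of -1.29. Car2, the cytosolic enzyme abundant in red cells, fell from 404 ± 49.5 to 128 ± 38.5 CPM (SD, n = 4; -1.65, SE 0.20). Car3, an enzyme of muscle and hepatocytes, was at 5.86, 8.82, 10.8 and 25.2 CPM against 136, 187, 202 and 156 CPM (-3.75, SE 0.48). The mitochondrial Car5a (-4.36, SE 0.57) and the membrane enzyme Car14 (-1.53, SE 0.19) fell as well. Car5a was at 0.116 to 1.46 CPM in knockout and 8.70 to 19.6 CPM in control livers. A knockout library held as few as 2 reads of Car5a, so the size of its fold is uncertain.

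**Figure D3:**
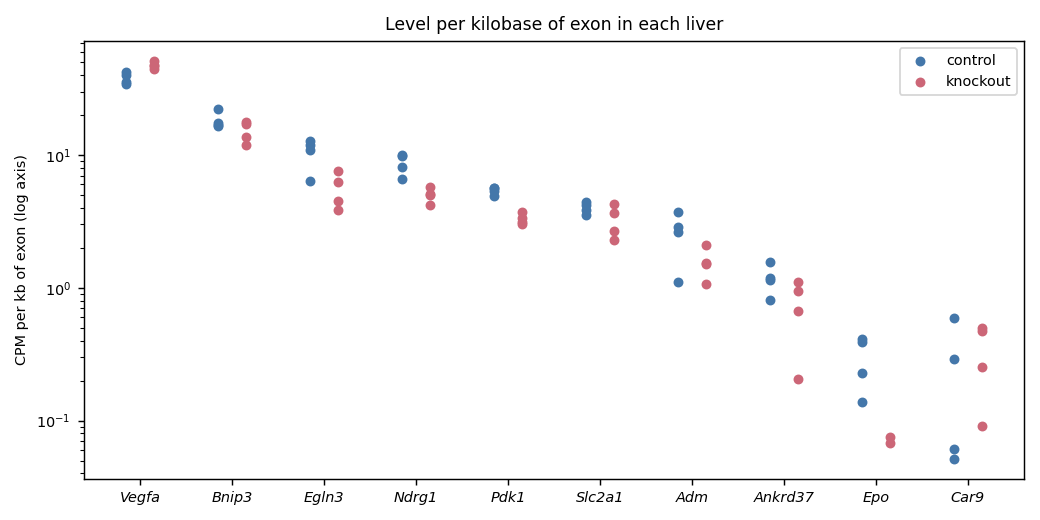
CPM per kilobase of exon of each gene in each liver on a log axis, in the order of the control means; libraries with no reads of Epo (knockouts 277 and 278) are not drawn. Vegfa stood highest in both genotypes, and Epo and Car9 lowest.

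Per kilobase of exon, the control livers held the genes in the order Vegfa (37.8 ± 3.72 CPM per kb, SD, n = 4), Bnip3 (18.2 ± 2.60), Egln3 (10.5 ± 2.85), Ndrg1 (8.60 ± 1.60), Pdk1 (5.37 ± 0.342), Slc2a1 (4.00 ± 0.390), Adm (2.59 ± 1.10), Ankrd37 (1.18 ± 0.310), Epo (0.292 ± 0.131) and Car9 (0.249 ± 0.254). The libraries of neighbours in this order overlapped for Egln3 and Ndrg1, Slc2a1 and Adm, Adm and Ankrd37, and Epo and Car9. In knockout livers the first 8 kept their order, from 47.7 ± 2.76 CPM per kb for Vegfa to 0.729 ± 0.394 for Ankrd37, while Car9 (0.329 ± 0.193) stood above Epo (0.0356 ± 0.0413) without overlap. Slc2a1 overlapped Pdk1 and not Adm there. Length is the union of all annotated exons, so a gene with long exons that are little used reads too low. With the longest transcript as length, Ndrg1 stood above Egln3 in both genotypes, at 14.01 against 10.5 CPM per kb in controls and 8.15 against 5.55 in knockouts. Ankrd37 then read 1.95 CPM per kb in controls and 1.21 in knockouts, and Pdk1 8.06 and 4.94.

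RNA of genes of the erythropoietin receptor and its pathway was called in both directions, and signalling was not measured. Of 16 such genes, 5 rose, 2 fell and 9 did not pass, with a median of 0.12. Over all genes tested, 9.27% were called higher and 11.4% lower. Epor, the receptor, was at 5.63, 6.01, 4.37 and 8.74 CPM in knockout livers and at 17.2, 11.3, 15.02 and 19.7 CPM in controls, and fell by 1.35 (SE 0.22, adjusted p = 3.02e-04) without overlap. Epor is also 1 of the 26 erythroid markers, all of which fell (median -1.83). With the erythroid score, made without Epor, as a covariate the estimate of Epor was 0.30 (SE 0.51, adjusted p = 0.944). Over the 8 livers that score correlated with genotype at -0.94, and calls among all genes tested went from 3782 to 41 with it. The estimate therefore cannot separate genotype from erythroid content, and the part of erythroid cells in the fall of Epor was not tested. Bcl2l1, the survival gene that the receptor sustains in erythroblasts, fell by 0.59 (SE 0.09). Socs3, a feedback inhibitor of cytokine receptors, rose by 0.77 (SE 0.18), and Csf2rb, a receptor chain of myeloid cells, by 1.30 (SE 0.11). The number that rose was 3 without any single library other than knockout 278 and control 282. Kupffer cell and macrophage markers rose in the same livers, 11 of 12 called higher and 0 lower, with summed levels of 1647 to 1917 against 923 to 1060 CPM, and their part in the rise was not tested.

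Of 34 other targets of the factors tested, 6 rose, 9 fell and 19 did not pass, with a median of -0.01. Those with the smallest p were Igfbp1, a binding protein of insulin-like growth factors (log2 fold change 2.77, SE 0.10), and on the falling side the transferrin receptor Tfrc (-1.51, SE 0.13), Igfbp3 (-1.28, SE 0.12) and Narf (-1.08, SE 0.11). Tfrc is also an erythroid marker.

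**Figure D4:**
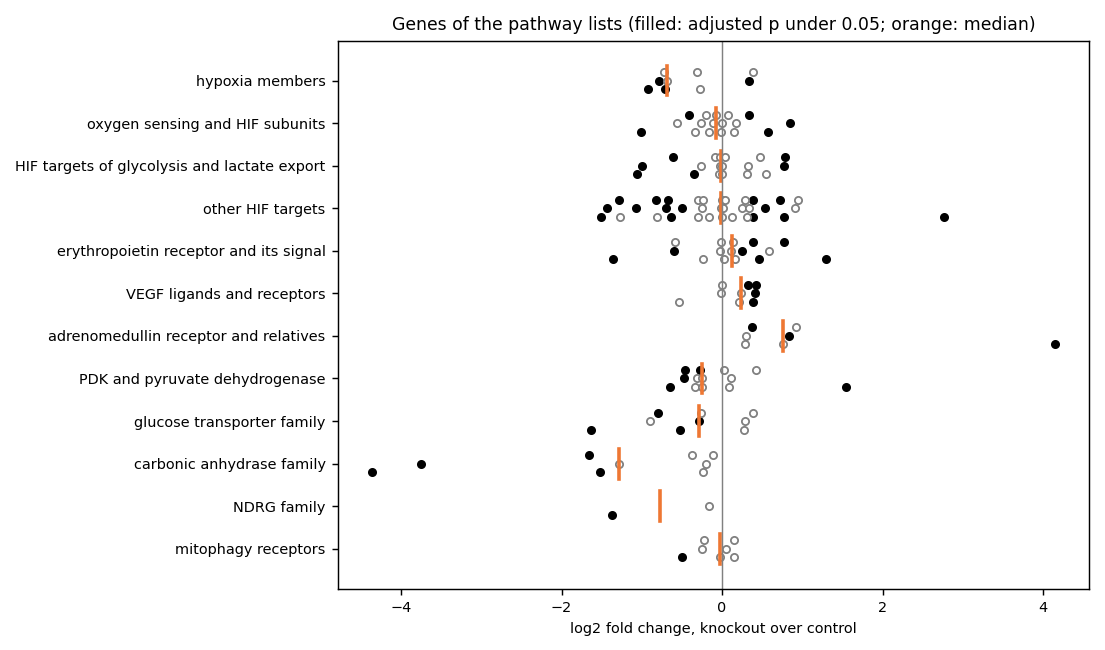
Log2 fold change of each tested gene of the 10 genes described here and of 11 lists of related genes (filled: adjusted p under 0.05; orange bars: medians). Medians lie near 0 for the sensing, glycolysis and other target lists, at -0.69 for the hypoxia genes and at -1.29 for the carbonic anhydrases.

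Markers of other cell types differed between the same livers, and values of the 10 genes have to be read beside them. All 26 erythroid markers found fell (median log2 fold change -1.83), with a summed level of 2507 to 5077 CPM in knockout and 10160 to 13279 CPM in control livers and no marker at 0. The 2 most abundant were the globins Hba-a1 (log2 fold change -1.71, SE 0.25) and Hbb-bs (-1.78, SE 0.23). All 10 genes of S phase and mitosis fell, Mki67 by 1.42 and Top2a by 1.04. Of 12 hepatocyte markers 2 rose and 3 fell, with Alb at -1.08 and Ahsg at 0.37. Of 12 stellate cell and fibroblast genes 3 rose and 2 fell, with Col3a1 at -0.53 and Reln at -0.21 (adjusted p = 0.0954, called without knockout 278), and 1 fell without knockout 275, 276 or 277 or control 279 or 280. The endothelial and macrophage lists, described above, had Stab2 and Kdr (log2 fold changes 0.41 and 0.42) and Marco and Cd5l (0.94 and 0.89) as their most abundant genes. Of 7 genes each, megakaryocyte markers had 2 that fell (Vwf 0.08 and Itga2b -0.02 did not pass), neutrophil markers 1 that fell, Ltf (-0.44; Ngp -0.12 did not pass; 1 marker rose without knockout 277), and B cell precursor markers 1 that rose and 3 that fell (Ebf1 -0.25 did not pass). The Ltf call was lost without knockout 276 or 277 or control 281 or 282, at -0.42 to -0.35. Of the B cell precursor markers 0 rose without knockout 275, 276 or 278 or control 279, 280 or 281. Cholangiocyte markers had 0 calls among 7 in edgeR, DESeq2 and limma-voom, with 0 at an unadjusted p under 0.05 in edgeR (Spp1 0.28), and 1 rose without control 280. Of 7 kidney tubule genes only Lrp2 was tested (-0.09, adjusted p = 0.882), and Slc34a1 was at or below 0.421 CPM.

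**Figure D5:**
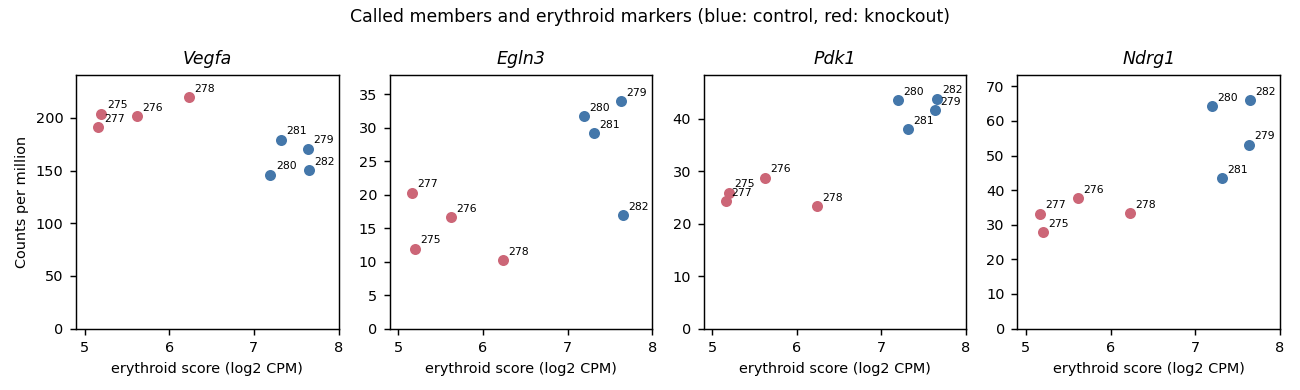
CPM of the 4 called genes in each liver (y axis, from 0) against the erythroid score (x axis), the mean log2 CPM of 24 erythroid markers; blue points are controls, red points knockouts, and numbers name the animals. The scores of knockouts (5.16 to 6.23) and controls (7.19 to 7.65) do not overlap. Knockout 278, with the highest score of the knockouts, had their lowest CPM of Pdk1 and Egln3 and their highest of Vegfa. Its Ndrg1 lay between those of other knockouts.

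The erythroid score separated the genotypes completely, at 5.16 to 6.23 in knockout and 7.19 to 7.65 in control livers, and it correlated with genotype at -0.94 over the 8 livers. With the score as a covariate, the variance of the genotype term was inflated 8.94-fold and edgeR called 0 of the 9 genes (3 had an unadjusted p under 0.05) and 22 higher and 19 lower of all genes tested. The estimates were then 0.58 (SE 0.24) for Vegfa, -0.79 (SE 0.34) for Pdk1, -2.13 (SE 0.70) for Egln3 and -0.51 (SE 0.40) for Ndrg1, against 0.34, -0.71, -0.92 and -0.78 without it. Those 4 kept their direction, and Slc2a1 (0.80, SE 0.47) and Ankrd37 (0.55, SE 1.37) changed theirs. Among the knockouts, animal 278 had the highest erythroid score and the lowest Pdk1 (23.4 CPM) and Egln3 (10.2 CPM). It had the highest Vegfa (220 CPM), Slc2a1 (14.9 CPM), Ankrd37 (1.70 CPM) and Car9 (1.15 CPM). Its Ndrg1 (33.4 CPM), Bnip3 (30.9 CPM) and Adm (2.43 CPM) lay between those of other knockouts. Genotype and erythroid content cannot be told apart in these 8 livers.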

How the data were processed

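The libraries are of RNA from 8 neonatal livers, 4 per genotype. The deposited table holds raw read counts per Ensembl gene. Reads were aligned with Rsubread 2.20.0 in R 4.4.1 to a build spelled GRMm38, taken as GRCm38, per the labels' protocols, and counted with featureCounts, per the submitters' processing notes. Annotation, strand and multi-mapping settings: not given in the sources used here. DESeq2 1.46.0 was the authors' tool, per the design text, and none of their results was used.

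Symbols, positions and exon lengths came from GENCODE M21 (GRCm38), which matched 48058 of 48440 genes, and promoter sequences from RefSeq (GRCm38.p6). Counts were tested with edgeR 4.0.16 (R 4.3.3): filterByExpr (minimum count 10, minimum total 15), TMM scaling, robust quasi-likelihood F-test of genotype over all 8 libraries, Benjamini-Hochberg adjustment over 18274 genes, threshold 0.05. The fits were tried on simulated counts with 200 genes changed and the same dispersion for all genes. That setting is simpler than these data, so it does not measure how reliable the calls are. SE is the log2 fold change divided by the square root of F, and intervals use the degrees of freedom of the test. CPM use TMM library sizes. Epo was compared by an exact permutation test over 70 assignments. Libraries of 1 genotype differed well beyond sampling noise (chi-square over degrees of freedom 12.9 to 24.0). The labels give no batch, and animal numbers are not shared between genotypes. Y-linked genes, which mark sex, were expressed in 1 knockout and 2 control livers.

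The genes, lists and tests were chosen with earlier results of these data known. The text names all 10 genes, the up to 4 genes with the smallest p in each related list, their paralogues, receptors and sensors, the 2 most abundant genes of each marker list (some are not reported here), and the 3 genes most like the member with the smallest p. Gnb2 and the genes that overlap a member were named after the annotation was read.

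Alternatives were RLE and upper-quartile scaling, library size alone, no low-count filter, a 1 CPM filter, dispersion without the robust option, DESeq2 1.42.0, limma-voom (limma 3.58.1), erythroid and Y-linked covariates, a minimum fold of 1.5, omission of genes above 1% of counts, each library left out, knockout 278 and control 282 left out together, and the longest transcript as gene length.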

Additional observations from a re-analysis of the deposited data

Results flagged for a closer look

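A liver that stood far from the other 3 of its genotype was found in 4 groups, and chance alone flags about 1 group in 20. The rule was a gap to the nearest liver over the range of the group above Dixon's 95% critical value. Of the 158 groups of named genes, those of Epo and Slc34a1 were not checked, because their levels were too low. Bnip3 was at 49.9 CPM in control 280 and at 37.7 to 39.1 CPM in the other controls (0.885). Kdr was at 196 CPM in control 280 against 176 to 179 CPM (0.847). Slc2a2 was at 245 CPM in knockout 276 against 313 to 325 CPM (0.854). Lrp2 was at 1.96 CPM in control 281 against 3.96 to 4.28 CPM (0.864).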

How the results depend on the processing

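No paired analysis was possible because the 2 genotypes share no animal numbers. Scaling by RLE or upper quartile, either filter, DESeq2, limma-voom and the Y-linked covariate left Vegfa, Pdk1, Egln3 and Ndrg1 called in the same direction. With a minimum fold of 1.5, 217 genes were called higher and 500 lower, and with the erythroid score as covariate 22 and 19; in both, 0 members were called higher and 0 lower. Without knockout 278 and control 282, 0 members were called higher. The Epo difference (-0.219 CPM) was then -0.176 CPM (exact permutation p = 0.10). That p is the lowest this smaller number of livers can reach, and the knockouts still lay below the controls. Without 1 library at a time the Epo difference was -0.263 to -0.186 CPM, genes called higher were 1223 to 1762 and lower 1699 to 2167. With library size alone 57.6% of calls were higher, against 44.8%, and the median of all genes was 0.08.

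Direction changed with the erythroid covariate for Ankrd37 (0.55), Slc2a1 (0.80), Epor (0.30), Calcrl (-0.45), Ramp2 (-0.60), Slc2a3 (0.63), Hif1a (-0.34), Os9 (-0.21), Ldha (-0.0011), Socs3 (-0.31), Nrp2 (-0.024), Slc2a4 (1.29), Spp1 (-0.83), Itga2b (0.36), Ngp (0.31), Ltf (0.013) and Ebf1 (0.70). It also changed for Flt1 (0.023) and Itga2b (0.011) by upper quartile, Flt1 (0.059) and Itga2b (0.049) with library size alone, Vhl with limma-voom (-0.0079) and without genes above 1% of counts (-0.0036), and Flt1 (0.033), Vhl (-0.0024) and Itga2b (0.028) with the Y-linked covariate. Without knockout 278 and control 282 it changed for Car9 (-0.21), Ndrg3 (0.039) and Lrp2 (0.13). Leaving out 1 library, Flt1 ran from -0.059 to 0.054, Vhl from -0.15 to 0.18, Itga2b from -0.12 to 0.093, Lrp2 from -0.32 to 0.038, Hif1a from -0.011 to 0.12 and Vwf from -0.024 to 0.22. The cause was not tested. Depth limits Epo, Car9 and Ankrd37 most.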
